A study of Homo sapiens with 12 samples.

Results

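The accessibility of chromatin at the NRF2 antioxidant response genes was examined by ATAC-seq, in which a transposase cuts and tags open DNA, in DU-145 and BT-549 cells. The 10 genes were NFE2L2, KEAP1, MAFF, SLC7A11, GCLC, GCLM, NQO1, TXNRD1, SRXN1 and HMOX1, chosen for their function in the pathway. For each gene, the 100-bp bins within the gene body and 20 kb on each side (GENCODE v44, GRCh38) were taken from the count table of each line. A run of adjacent bins is called an accessible region here. The genes held 91 of the 79177 regions in the DU-145 table (1420 of 709366 bins), 48 of the 46298 regions in the BT-549 table (615 of 472994 bins) and 40 of the 32671 regions made of bins that both tables share. In each table, all 10 genes had a region within 1 kb of an annotated start site, and the one with the highest coverage is called the promoter region.

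DU-145 is a castration-resistant prostate cancer line and BT-549 a triple-negative breast cancer line. Both carried a tetracycline-inducible shRNA against MUC1 and were treated for 7 days with 0.1% DMSO as vehicle or with doxycycline (DOX), which turns the shRNA on. Each of the 4 groups had 3 libraries. All 12 libraries come from cells with the MUC1 shRNA, so effects of DOX itself and of MUC1 silencing cannot be told apart here. The lines also differed in culture medium, since BT-549 received insulin. The promoters of the epithelial genes CDH1 and EPCAM were in the DU-145 table only, those of the mesenchymal genes CDH2 and TWIST1 in the BT-549 table only, and those of GRHL2, ESRP1, ZEB1 and VIM in both.

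NRF2, the protein made from NFE2L2, is a transcription factor that guards cells against oxidants and electrophiles. In resting cells KEAP1 holds it for ubiquitination by a CUL3-RBX1 ligase. When KEAP1 cysteines are modified, NRF2 escapes, pairs with a small MAF protein such as MAFF and binds the antioxidant response element (ARE), whose core reads TGACNNNGC. Genes with an ARE make glutathione, supply reduced thioredoxin and degrade heme. The ARE core can contain the AP-1 site TGACTCA, which JUN and FOS proteins bind. In cancers, lasting NRF2 activity is known for protecting tumor cells from oxidative stress and drugs.

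The sum of bin values per library, in units of 1000000, lay between 12.4 and 24 for the vehicle libraries of DU-145 and between 16.3 and 25.2 for its DOX libraries. For BT-549 it lay between 9.14 and 13.6 with vehicle and only between 2.5 and 3.27 with DOX. In BT-549 DOX, 8.84% to 16.9% of bins had a value under 1, against 0.0116% to 0.117% in BT-549 vehicle, so values of narrow regions are least certain there. For DU-145 the order was opposite. Bins under 1 made up 1.49% to 6.02% with vehicle but only 0.233% to 0.851% with DOX. Its libraries with the largest sums, 24 with vehicle and 25.2 with DOX, had median bin values of 13.09 and 17.35. The part of this difference in the DU-145 changes was not tested. A region's level is its mean coverage per 100-bp bin, scaled to a library sum of 1000000. Scaling by library sums put the median log2 fold change of all regions at 0.24 in DU-145 and -0.10 in BT-549, and log2 changes are to be read against these medians. Trimmed-mean (TMM) factors put the medians at 0.05 and 0.00, and counts with them are given beside the main ones.

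A few stretches that hold the ARE core in open regions of these cells are shown, because several of the results on HMOX1, NQO1 and GCLC are about the regions around them. They were read from hg38 in the direction of the gene, with each ARE core in capitals, on either strand.
HMOX1 far upstream element, chr22:35371999-35372134, plus strand, intergenic: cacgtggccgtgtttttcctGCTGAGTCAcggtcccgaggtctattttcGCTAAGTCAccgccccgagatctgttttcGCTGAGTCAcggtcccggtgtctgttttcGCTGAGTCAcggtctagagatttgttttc
HMOX1 near upstream element, chr22:35377072-35377184, plus strand, exon of a noncoding transcript: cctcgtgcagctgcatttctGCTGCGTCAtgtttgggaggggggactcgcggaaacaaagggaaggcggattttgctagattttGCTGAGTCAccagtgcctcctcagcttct
NQO1 promoter, chr16:69726987-69727035, minus strand, exon of NQO1-DT: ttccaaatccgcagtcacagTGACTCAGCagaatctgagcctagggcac
GCLC upstream start, chr6:53548229-53548277, minus strand, intron: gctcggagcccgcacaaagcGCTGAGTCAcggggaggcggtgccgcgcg
GCLC distal intron, chr6:53616034-53616082, minus strand, intron: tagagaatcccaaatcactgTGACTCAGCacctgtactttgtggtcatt
The far HMOX1 element held 4 ARE cores, of which 3 overlapped the AP-1 letters, and the near element held 2, of which 1 did. The cores of NQO1 and of both GCLC stretches overlapped them too. Over the member regions of both tables, merged to 98 intervals, 96 ARE cores were found and 11 overlapped an AP-1 site. Within 300 bp centred on the highest bin, on both strands, the ARE core was in 28 of 91 member regions in DU-145 (30.77%, against 16.23% of all regions) and in 12 of 48 in BT-549 (25%, against 14.27%). The AP-1 letters TGACTCA or TGAGTCA were in 25.27% of the DU-145 member regions against 30.02% of all, and in 16.67% against 17.19% in BT-549. These shares describe letters in a window and were not tested.

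In DU-145, more of the NRF2 pathway regions closed than opened with DOX. Of the 91 member regions, 34 fell and 12 rose at an adjusted p under 0.05 (edgeR quasi-likelihood test), against 17.4% lower and 37.1% higher among all regions. As shares of the members these were 37.36% lower and 13.19% higher, and the median log2 fold change of the members was -0.22. With TMM factors 46 fell and 8 rose, among them all 34 and 8 of the 12, and with the GC trend of each library removed 62 fell and 3 rose. Among all regions, 25.5% fell and 30% rose with TMM factors, and 29.7% fell and 23.1% rose with the GC trend removed. NQO1 held 6 and TXNRD1 14 of the 34 lower regions. A region needed peaks in at least 3 replicates of any condition, so the vehicle or the DOX libraries alone could admit it. The part of this selection in these counts was not tested. The cutoffs of the study, a fold change of 2 and an adjusted p under 1e-5, left 4 closing and 2 opening regions, where 17.3% of all regions passed. The study applied its cutoffs to 100-bp bins tested with DESeq2, and here they were applied to whole regions tested with edgeR. The regions that passed are therefore not the calls of the study.

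In BT-549, 15 of 48 member regions fell and 4 rose with DOX, against 18% lower and 12.2% higher among all regions. As shares of the members these were 31.25% lower and 8.333% higher, and their median log2 fold change was -0.11. With TMM factors the counts were 15 and 6, against 14.8% lower and 15.9% higher among all regions. Of the 4 that rose, 2 were left without vehicle replicate 2 and 1 without vehicle replicate 3. The NFE2L2 window held 8 of the 15, HMOX1 3 and NQO1 2. A region needed peaks in at least 3 replicates of any condition, so the 3 vehicle libraries alone could admit it. Fewer peaks were called with DOX, and the part of this selection in the falls was not tested. The cutoffs of the study there, a fold change of 2 and an adjusted p under 0.01, left 10 closing and 0 opening regions, where 12.4% of all regions passed. These too were whole regions tested with edgeR, not the bins of the study.

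**Figure D1:**
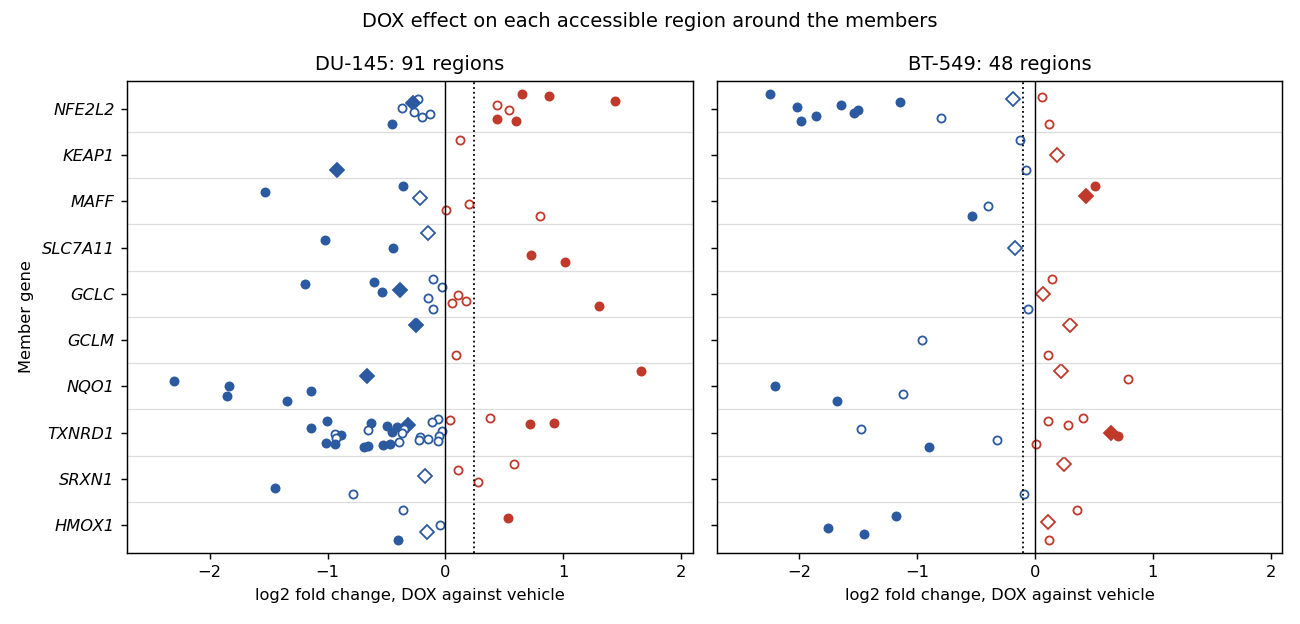
Log2 fold change in coverage, DOX against vehicle, of each member region, by gene, with the 91 regions of DU-145 on the left and the 48 of BT-549 on the right. Diamonds are promoter regions, filled symbols passed an adjusted p of 0.05, red lies above 0 and blue below, and the dotted line is the median of all regions. Filled blue symbols gather at NQO1 and TXNRD1 in DU-145 and at NFE2L2 and HMOX1 in BT-549.

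NFE2L2 encodes NRF2 itself, and in BT-549 a series of intronic regions in its gene body closed with DOX. The most strongly called, at 39.7 kb downstream of the start site (chr2:177224001-177227100), had levels of 1.79, 1.54 and 1.86 in vehicle and 0.445, 0.518 and 0.467 with DOX. The groups were far apart, with a log2 fold change of -1.86 ± 0.17 (SE, n = 3 per group, edgeR adjusted p = 3.81e-09). At 22.1 kb (chr2:177241701-177243800) the levels went from 1.77, 1.76 and 1.67 to 0.608, 0.553 and 0.676, a fall by 1.5 on the log2 scale. Its highest bin alone gave -0.82 with an edgeR adjusted p of 0.0557. At 19.6 kb (chr2:177244401-177246900) they went from 1.03, 0.814 and 1.02 to 0.29, 0.179 and 0.231, a log2 fold change of -2.02 ± 0.26. The regions at 36.2, 12.6 and 9.6 kb fell by 1.54, 1.65 and 1.15 on the log2 scale, and an exonic region of 400 bp at 43.1 kb by 1.98. For the regions at 39.7 and 43.1 kb, the nearest protein-coding start is that of HNRNPA3. Removing the trend of coverage with GC content from each library ended the calls at 9.6 and 43.1 kb (edgeR adjusted p = 0.136 and 0.0938) and kept the others. The authors' calls gave 16, 19 and 16 peaks in the NFE2L2 window in BT-549 vehicle and 3, 4 and 4 with DOX. The vehicle libraries alone could thus have admitted these regions, and the part of that selection in the falls was not tested.

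The NFE2L2 promoter, which was more open than these introns, missed the test in BT-549. Its level was 3.83, 4.08 and 3.95 in vehicle and 3.73, 3.18 and 3.52 with DOX, so that every DOX library lay below every vehicle library (log2 fold change -0.18 ± 0.10, edgeR adjusted p = 0.195, and 0.0327 with the GC trend removed). In DU-145 the promoter went from 5.07, 4.97 and 4.78 to 4.14, 4.06 and 4.0. That change of -0.28 ± 0.07 passed (edgeR adjusted p = 0.000952) but turned to 0.03 under loess offsets.

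The introns did not close alike in DU-145. Its regions at 39.1 and 35.2 kb rose by 0.60 and 0.44 on the log2 scale, calls that TMM factors ended (edgeR adjusted p = 0.0865 and 0.222). Those at 22.1 and 19.5 kb had log2 fold changes of -0.13 and -0.26 and did not pass. The DOX effect in BT-549 minus that in DU-145, tested as an interaction over all 12 libraries, was -2.98 ± 0.31 at 39.7 kb (edgeR adjusted p = 2.93e-10), -2.32 ± 0.34 at 36.2 kb and -2.7 ± 0.47 at 12.6 kb. At 22.1 and 19.5 kb the interaction passed too (-1.53 and -1.55) but not with the GC trend removed (edgeR adjusted p = 0.198 and 0.124).

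**Figure D2:**
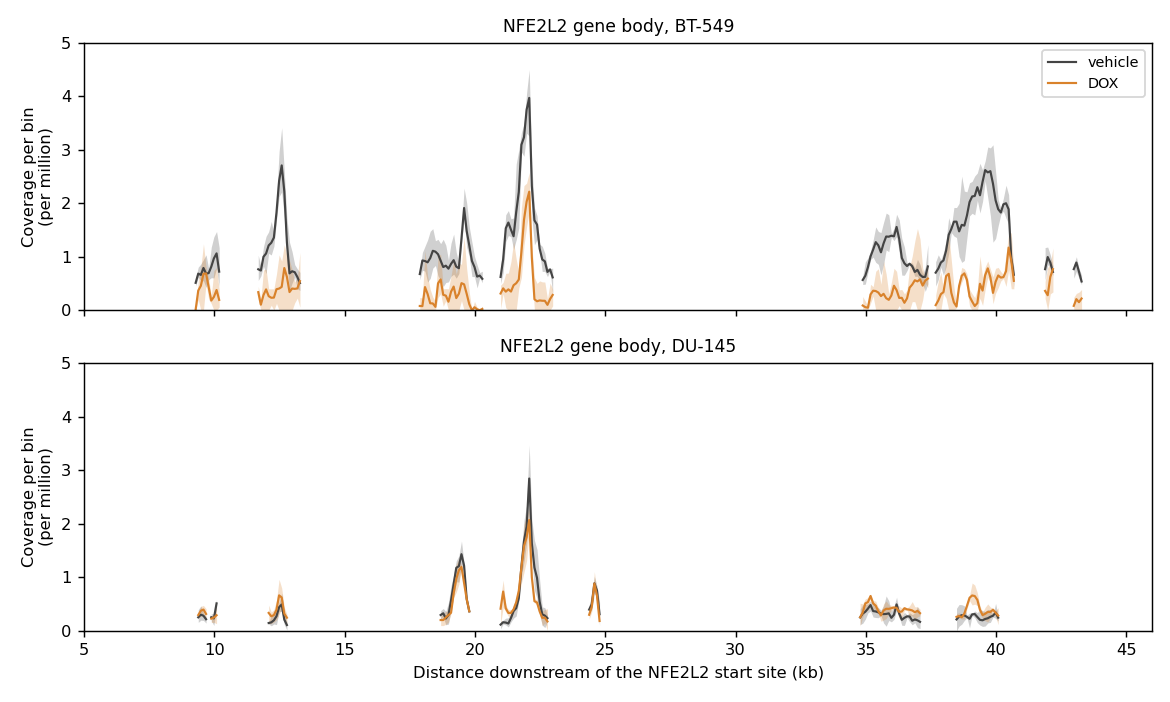
Coverage per 100-bp bin, scaled to a library sum of 1000000, against distance downstream of the NFE2L2 start site in kb, in BT-549 (top) and DU-145 (bottom). Lines are means of 3 libraries and shading runs from the lowest to the highest. In BT-549 the vehicle line lies above the DOX line over most of the accessible bins, and in DU-145 the lines lie close together.

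The outer part of the NFE2L2 window also held regions near other starts. The region 132.8 kb upstream (chr2:177396601-177398000), with AGPS as the nearest protein-coding start, fell in BT-549 from 1.3, 1.04 and 1.19 to 0.134, 0.274 and 0.31 (log2 fold change -2.24 ± 0.31). The overlapping DU-145 region went the other way, from 0.614, 0.721 and 0.522 to 1.13, 1.07 and 1.25 (0.88 ± 0.14), a call that ended with the GC trend removed (edgeR adjusted p = 0.173). An intronic region 73.5 kb upstream, beside an alternative NFE2L2 start and in the DU-145 table only, rose from 0.194, 0.394 and 0.509 to 1.23, 0.874 and 0.892 (1.44 ± 0.23). It is 1 of the 2 opening regions that passed the cutoffs of the study. At the start of HNRNPA3, 52.2 kb downstream, the DU-145 level fell by 0.45 on the log2 scale, and BT-549 gave 0.12 ± 0.12 without passing.

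KEAP1, the sensor that holds NRF2 for degradation, closed at its promoter in DU-145 (chr19:10501601-10503500). The level was 4.3, 4.25 and 3.79 in vehicle and 1.95, 2.26 and 2.32 with DOX, with the groups far apart. The log2 fold change was -0.92 ± 0.09 (edgeR adjusted p = 6.31e-11), the smallest adjusted p of the 10 promoters in that comparison. In BT-549 the level was 2.08, 2.41 and 1.97 in vehicle and 1.94, 3.01 and 2.43 with DOX, with overlapping groups (0.19 ± 0.17, edgeR adjusted p = 0.427). Its highest bin alone gave 0.80 (edgeR adjusted p = 0.0134).

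MAFF is a small MAF partner of NRF2 that lacks an activation domain. In DU-145 its promoter had 1.69, 1.95 and 2.22 in vehicle and 1.51, 1.79 and 1.72 with DOX, which overlap (-0.22 ± 0.10, edgeR adjusted p = 0.0674). In BT-549 it rose from 2.11, 1.83 and 1.97 to 3.02, 2.6 and 2.37 (0.43 ± 0.14, edgeR adjusted p = 0.0179). That call ended without vehicle replicate 2 or 3 or DOX replicate 1 (edgeR adjusted p = 0.082, 0.0524 and 0.095) and with the GC trend removed (0.225). A region 14.3 kb upstream fell in DU-145 from 0.646, 0.48 and 0.608 to 0.11, 0.24 and 0.223 (-1.53 ± 0.34). In BT-549 a region 16.8 kb downstream fell from 2.52, 2.83 and 2.09 to 1.58, 1.94 and 1.64 (-0.53 ± 0.15). For both, the nearest protein-coding start is that of PLA2G6. At a start of PLA2G6, 20 kb upstream, the level fell by 0.36 on the log2 scale in DU-145 and rose by 0.51 in BT-549, where the call ended with the GC trend removed (edgeR adjusted p = 0.0824).

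SLC7A11, the cystine importer that feeds glutathione synthesis, did not pass the test at its promoter in either line. In DU-145 the level was 1.81, 2.29 and 2.13 in vehicle and 1.96, 1.91 and 1.79 with DOX (-0.14 ± 0.10, edgeR adjusted p = 0.225). In BT-549 it was 3.15, 2.63 and 2.99 in vehicle and 2.97, 2.64 and 2.2 with DOX (-0.17 ± 0.14, edgeR adjusted p = 0.384). Within the gene, DU-145 regions at 50 and 42.6 kb rose by 1.01 and 0.72, and those at 6.6 and 1.8 kb fell by 0.44 and 1.02 on the log2 scale. Both rises ended with the GC trend removed (edgeR adjusted p = 0.396 and 0.889).

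GCLC, the catalytic subunit of the enzyme that starts glutathione synthesis, closed in DU-145 at its start sites and far upstream. Its promoter region in DU-145, 3.0 kb upstream (chr6:53547301-53548700), an annotated start that holds the ARE core shown above, went from 3.27, 3.19 and 3.06 to 2.21, 2.52 and 2.53 (log2 fold change -0.39 ± 0.09, edgeR adjusted p = 0.000557). The bin with that ARE core went from 7.22, 6.28 and 6.62 to 4.28, 4.53 and 4.94. In BT-549 the same bin had 5.63, 5.05 and 4.81 in vehicle and 6.15, 5.53 and 7.29 with DOX, and its region gave 0.14 ± 0.14 without passing. The start at 0.1 kb, the promoter region in BT-549 and over the shared bins, fell by 0.54 on the log2 scale in DU-145 and gave 0.07 ± 0.12 in BT-549.

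A pair of intronic GCLC regions far upstream was in the DU-145 table only. At 66.5 kb the levels fell from 1.8, 1.42 and 1.62 to 0.679, 0.823 and 0.589 (-1.2 ± 0.16). At 70.8 kb, around the last ARE core printed above, they fell from 3.16, 3.46 and 3.49 to 2.38, 2.07 and 2.19 (-0.61 ± 0.09), and the bin with the core went from 5.55, 6.26 and 6.53 to 4.13, 3.27 and 3.84. No vehicle and DOX library overlapped at either place. A region 48.0 kb downstream rose from 0.337, 0.331 and 0.486 to 0.969, 0.951 and 0.872 (1.3 ± 0.21).

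GCLM, the modifier subunit of the same enzyme, fell slightly at its promoter in DU-145, from 2.94, 2.94 and 2.68 to 2.11, 2.64 and 2.43 (-0.25 ± 0.09, edgeR adjusted p = 0.0215). The call ended without vehicle replicate 1 or 2 or DOX replicate 1 (edgeR adjusted p = 0.0519, 0.0855 and 0.133). In BT-549 the promoter had 2.93, 3.03 and 2.77 in vehicle and 4.12, 3.81 and 2.93 with DOX, which overlap (0.30 ± 0.13, edgeR adjusted p = 0.0863).

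NQO1, a quinone reductase and a classic NRF2 target, closed across its locus in DU-145. There 6 of its 7 regions fell, against 17.4% of all regions. The authors' calls gave 7, 8 and 12 peaks in the NQO1 window in DU-145 vehicle and 4, 7 and 4 with DOX. Peaks in the vehicle libraries alone could have admitted these regions, and the part of that selection in the falls was not tested. The promoter (chr16:69724701-69728200) went from 2.78, 3.12 and 3.28 to 1.75, 2.11 and 1.92 (-0.66 ± 0.08, edgeR adjusted p = 1.51e-08). The bin with its printed ARE core went from 3.65, 4.03 and 4.53 to 1.69, 1.96 and 2.25. Intronic regions with low levels fell further in proportion, from 0.343, 0.378 and 0.376 to 0.0117, 0.0999 and 0.0966 at 4.2 kb (-2.3 ± 0.39) and from 0.294, 0.555 and 0.349 to 0.126, 0.113 and 0.11 at 5.6 kb (-1.83 ± 0.37). At 15.0 kb the levels fell from 0.986, 1.08 and 0.666 to 0.394, 0.448 and 0.404 (-1.14 ± 0.21). Past the gene end, where the nearest protein-coding start is that of NFAT5, the regions at 19.9 and 22.7 kb fell by 1.86 and 1.35 on the log2 scale. The exception was a region 19.8 kb upstream, with NOB1 as the nearest start, which rose by 1.66 ± 0.49, a call that ended under loess offsets (edgeR adjusted p = 0.59).

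In BT-549 the NQO1 promoter had 3.66, 4.14 and 4.05 in vehicle and 3.91, 5.56 and 4.34 with DOX (0.22 ± 0.12, edgeR adjusted p = 0.198). The bin with the ARE core had 4.27, 4.37 and 3.59 in vehicle and 3.36, 5.47 and 2.28 with DOX, and the groups overlapped at the promoter and at the bin. The regions at 20 and 14.9 kb fell by 1.68 and 2.2 on the log2 scale. The second call ended with the GC trend removed (edgeR adjusted p = 0.103), and the region had a level of 0 in DOX replicate 2.

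TXNRD1, which reduces thioredoxin with NADPH, had 32 regions in DU-145 and 9 in BT-549. Its most open annotated start, taken as the promoter region, is an internal one, 71.0 kb into the gene. In DU-145 the region around it (chr12:104285701-104290700) went from 2.53, 2.82 and 2.83 to 2.34, 2.21 and 2.04 (-0.31 ± 0.07, edgeR adjusted p = 0.000414). Its highest bin alone gave -0.18 (edgeR adjusted p = 0.159), and loess offsets gave 0.01. That region also holds the bins at 73.1 kb, and over the shared bins of the start alone the DU-145 groups overlapped. In BT-549 the start rose from 2.97, 2.4 and 2.58 to 3.61, 4.67 and 4.2 (0.65 ± 0.12, edgeR adjusted p = 0.000247). The next region there, at 73.1 kb, rose from 1.36, 1.72 and 1.5 to 2.03, 2.32 and 3.07 (0.71 ± 0.23). No libraries of the groups overlapped at either place. At the start from which distances are counted, BT-549 gave 0.11 ± 0.29 with overlapping groups (edgeR adjusted p = 0.813). The interaction there was -0.05 ± 0.30 (edgeR adjusted p = 0.924). In DU-145 the region at that start was lower by a factor of 1.04.

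In DU-145, 14 TXNRD1 regions fell and 2 rose, against 17.4% lower and 37.1% higher among all regions. Broad tracts in the gene body and past its end were among those that fell. The tract with its highest bin at 87.9 kb, beside the start of EID3 (chr12:104290901-104305100, 14200 bp) went from 1.13, 1.4 and 1.29 to 0.847, 1.01 and 0.851 (-0.50 ± 0.08), a call that ended under loess offsets (edgeR adjusted p = 0.157). The tract past the gene end at 141.8 kb (chr12:104353201-104364100, 10900 bp) went from 1.69, 1.94 and 1.93 to 1.11, 1.21 and 1.12 (-0.69 ± 0.07). At 94.3 kb the levels fell from 0.72, 0.695 and 0.823 to 0.306, 0.358 and 0.343 (-1.14 ± 0.16), and at 60.9 kb from 2.82, 3.31 and 3.37 to 1.79, 2.25 and 2.07 (-0.63 ± 0.09). The rises, at 65.2 and 56.7 kb (0.71 and 0.92 on the log2 scale), ended with the GC trend removed (edgeR adjusted p = 0.907 and 0.0761). In BT-549 the region at 142.7 kb fell from 1.1, 1.04 and 0.978 to 0.552, 0.592 and 0.537 (-0.90 ± 0.18), with -0.25 in its highest bin (edgeR adjusted p = 0.777).

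SRXN1, which repairs over-oxidized peroxiredoxins, had promoter levels of 1.85, 1.83 and 1.43 in DU-145 vehicle and 1.32, 1.49 and 1.72 with DOX (-0.18 ± 0.11, edgeR adjusted p = 0.179). In BT-549 they were 1.66, 2.09 and 1.6 in vehicle and 1.97, 2.58 and 1.84 with DOX (0.24 ± 0.22, edgeR adjusted p = 0.425), and the groups overlapped in both lines. A region 10.5 kb downstream, in the DU-145 table only, fell from 0.447, 0.518 and 0.626 to 0.128, 0.189 and 0.254 (-1.45 ± 0.28).

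HMOX1, the enzyme that degrades heme, overlapped between groups at its promoter in both lines. The levels were 1.6, 1.48 and 1.17 in DU-145 vehicle and 1.23, 1.39 and 1.21 with DOX (-0.16 ± 0.15, edgeR adjusted p = 0.383). In BT-549 they were 1.69, 2.09 and 1.49 in vehicle and 1.5, 2.75 and 1.52 with DOX (0.11 ± 0.26, edgeR adjusted p = 0.796). Of its upstream elements, whose sequences are printed above, the near one passed the test in BT-549 and the far one did not. The region 4.0 kb upstream (chr22:35376701-35377400) fell from 1.57, 1.87 and 1.34 to 0.545, 0.925 and 0.656 (-1.18 ± 0.31, edgeR adjusted p = 0.00451). The region 9.0 kb upstream (chr22:35371501-35372500) had 1.18, 1.35 and 1.42 in vehicle and 1.58, 1.69 and 1.79 with DOX (0.36 ± 0.22, edgeR adjusted p = 0.234). Every DOX library was thus below vehicle at the near element and above it at the far one, but the difference between the elements was not tested.

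In DU-145 the near HMOX1 element gave -0.05 ± 0.23, and the far one rose by 0.53 ± 0.22 with overlapping groups, a call that TMM factors ended (edgeR adjusted p = 0.192). In BT-549 an exonic region at 12.6 kb, inside the HMOX1 gene body, and a region past its end at 14.1 kb fell by 1.76 ± 0.28 and 1.45 ± 0.25 on the log2 scale. The nearest protein-coding start of both is that of MCM5.

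**Figure D3:**
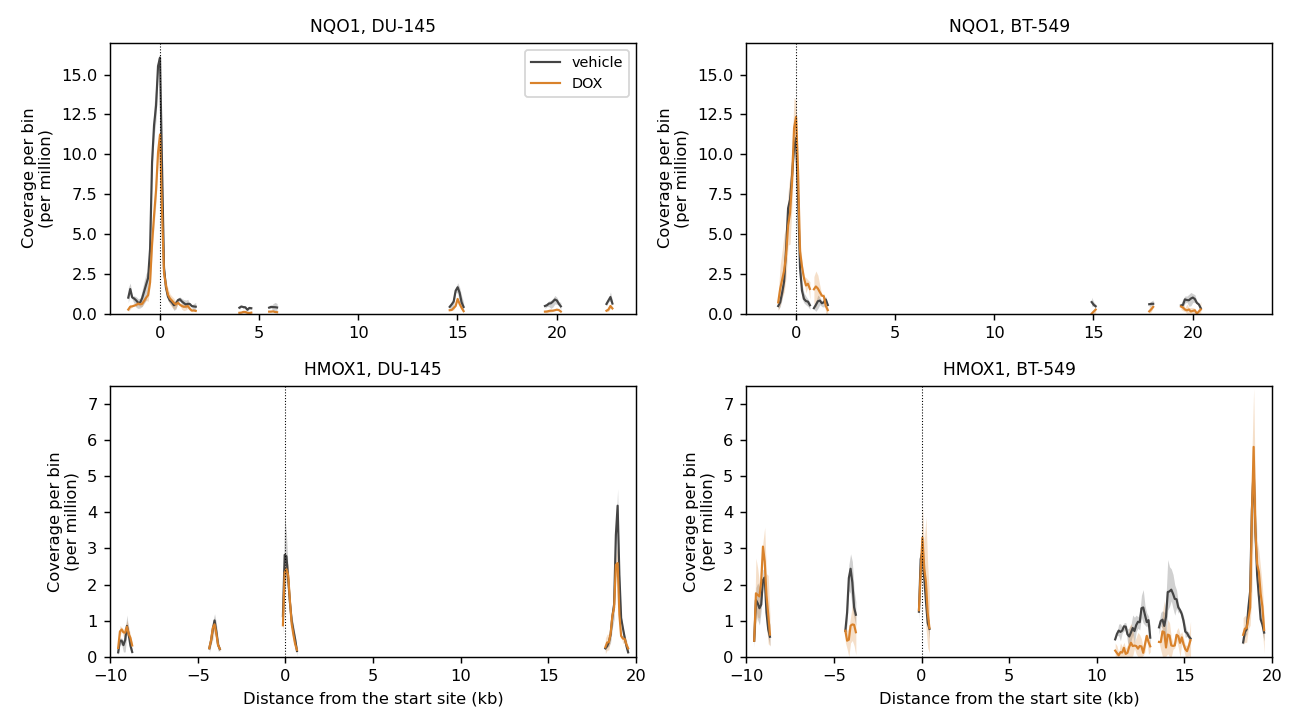
Coverage per 100-bp bin, scaled to a library sum of 1000000, against distance from the start site in kb, for NQO1 (top) and HMOX1 (bottom), with DU-145 on the left and BT-549 on the right. Lines are means of 3 libraries and shading runs from the lowest to the highest. The DOX line is lower at the NQO1 promoter in DU-145 and at the HMOX1 element 4.0 kb upstream in BT-549.

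Summed over whole windows, 6 of the 10 members fell in DU-145 and 0 rose (also 0 at an unadjusted p under 0.05 and with DESeq2), against 31.3% lower and 20.6% higher among the windows of 18199 protein-coding genes. NQO1 fell by 0.76 ± 0.07 on the log2 scale, KEAP1 by 0.64 ± 0.07, TXNRD1 by 0.40 ± 0.06 and GCLC by 0.35 ± 0.06. The smaller falls of MAFF (0.20 ± 0.08) and NFE2L2 (0.16 ± 0.05) ended with TMM factors (edgeR adjusted p = 0.122 and 0.0761). In BT-549, NFE2L2 fell by 0.60 ± 0.08 and HMOX1 by 0.43 ± 0.12, and 0 rose (1 at an unadjusted p under 0.05, 0 with DESeq2), against 13.8% lower and 19% higher among 16966 windows. The medians of all windows were -0.06 and 0.04. Windows of neighboring genes overlap and are not independent.

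At the promoters alone, 6 of 10 members fell in DU-145 and 0 rose, whereas 30.14% of all regions within 1 kb of a start site fell and 16.88% rose. The DU-145 vehicle libraries held more bins under 1 than the DOX libraries, and the part of this in the promoter falls was not tested. All 10 member promoters fell with TMM factors and with DESeq2, and 0 rose at an unadjusted p under 0.05. Among all DU-145 regions, 25.5% fell with TMM factors and 26% with DESeq2. TMM factors also lowered the median of all those regions from 0.24 to 0.05. Here and below, no share with these settings was computed over all regions within 1 kb of a start site. In BT-549, TXNRD1 (at its internal start) and MAFF rose (3 promoters with TMM factors). The count of falls was 0 (edgeR, also 0 at an unadjusted p under 0.05 and with DESeq2). Of all regions within 1 kb of a start site, 16.19% rose and 9.309% fell.

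Of all regions near a start site in DU-145, 30.14% fell and 16.88% rose. Of 43 other genes of the pathway, 40 had a promoter region there. Of these, 19 (47.5%) fell and 1 (2.5%) rose, or 28 and 1 with TMM factors. Those with the smallest adjusted p were ABCC3, an exporter of conjugates (-1.2 ± 0.09), BACH1, a repressor that competes for the ARE (-0.88 ± 0.07), NFE2L1, a relative of NRF2 (-0.62 ± 0.07), GSR, glutathione reductase (-0.69 ± 0.09), and PRDX1, a peroxiredoxin (-0.74 ± 0.11). In BT-549, 37 had one, of which 9 (24.32%) rose and 4 (10.81%) fell, or 11 and 3 with TMM factors. Among all regions near a start site, 16.19% rose and 9.309% fell, so the share of falls was near that of all. CUL3 and RBX1, the ligase parts that act with KEAP1, rose by 0.82 ± 0.12 and 0.56 ± 0.12 on the log2 scale. FTH1, the ferritin heavy chain, rose by 0.92 ± 0.15 and BLVRB, which reduces biliverdin, by 0.74 ± 0.15, while CBR3, a carbonyl reductase, fell by 0.69 ± 0.16. In DU-145, CUL3 and RBX1 fell by 0.30 ± 0.09 and 0.35 ± 0.10 (named after their values were seen).

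The lines differed at these genes without DOX. Levels in this comparison are scaled by the sum over the bins that both tables share, and the median log2 difference of all shared regions, BT-549 against DU-145, was 0.33. Of the 40 shared member regions, 16 were higher and 13 lower in BT-549 vehicle, against 48.1% higher and 27% lower among all. With TMM factors, which put the median at 0.06, 9 were higher and 21 lower, against 37.1% higher and 35.6% lower among all. Of the 10 promoters 1 was higher and 5 were lower in BT-549 (0 and 8 with TMM factors), where 37.49% of all regions near a start site were higher and 36.7% lower. Copy number of these loci and culture medium cannot be told apart from the line.

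The largest difference was inside TXNRD1 at 3.9 kb (chr12:104219001-104220300), with levels of 6.17, 9.0 and 7.61 in DU-145 and 0.976, 1.01 and 0.822 in BT-549 (log2 difference -3.02 ± 0.13, edgeR adjusted p = 2.85e-20). The tract at 141.8 kb was lower in BT-549 as well, with 4.77, 4.96 and 4.9 against 1.34, 1.26 and 1.2 (-1.94 ± 0.09), as was the internal start, with 6.56, 7.38 and 7.42 against 3.63, 2.93 and 3.17 (-1.13 ± 0.09). The KEAP1 promoter had 7.34, 7.43 and 6.47 in DU-145 and 2.7, 3.06 and 2.55 in BT-549 (-1.35 ± 0.10). The SRXN1 and NQO1 promoters had log2 differences of -0.91 ± 0.14 and -0.61 ± 0.08.

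Several NFE2L2 introns that closed with DOX in BT-549 were more open in that line than in DU-145. The same BT-549 vehicle libraries enter both comparisons, which are therefore not independent. At 39.7 kb the levels were 0.257, 0.423 and 0.365 in DU-145 and 2.63, 2.12 and 2.88 in BT-549 (2.83 ± 0.17). At 12.6 kb they were 0.259, 0.485 and 0.274 in DU-145 and 2.11, 2.55 and 1.88 in BT-549 (2.6 ± 0.22), and at 36.2 kb the difference was 1.65 ± 0.17. At 22.1 kb it was 1.1 ± 0.14, a call that ended with the GC trend removed (edgeR adjusted p = 0.315). The NFE2L2 promoter went the other way, with 6.76, 6.69 and 6.45 in DU-145 and 4.85, 5.15 and 5.02 in BT-549 (-0.41 ± 0.07).

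Both HMOX1 elements were more open in BT-549, by 1.63 ± 0.20 at 9.0 kb and 1.44 ± 0.21 at 4.0 kb upstream on the log2 scale. The MAFF region at 16.8 kb had 0.969, 1.06 and 0.807 in DU-145 and 4.75, 5.44 and 3.89 in BT-549 (2.29 ± 0.15). The SLC7A11 promoter was called higher in BT-549 (0.35 ± 0.11), but TMM factors ended that call (edgeR adjusted p = 0.498) and removal of the GC trend turned it to -0.54. Among the other pathway genes, 16 of 37 promoters were higher in BT-549 and 12 lower (9 and 19 with TMM factors). These shares, 43.24% and 32.43%, were near the 37.49% and 36.7% of all regions near a start site. Among those with the smallest adjusted p were OSGIN1 (-1.64 ± 0.09), NFE2L1 (-1.29 ± 0.09), ABCC3 (-2.24 ± 0.18) and GSTM3, a glutathione transferase (1.61 ± 0.14).

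**Figure D4:**
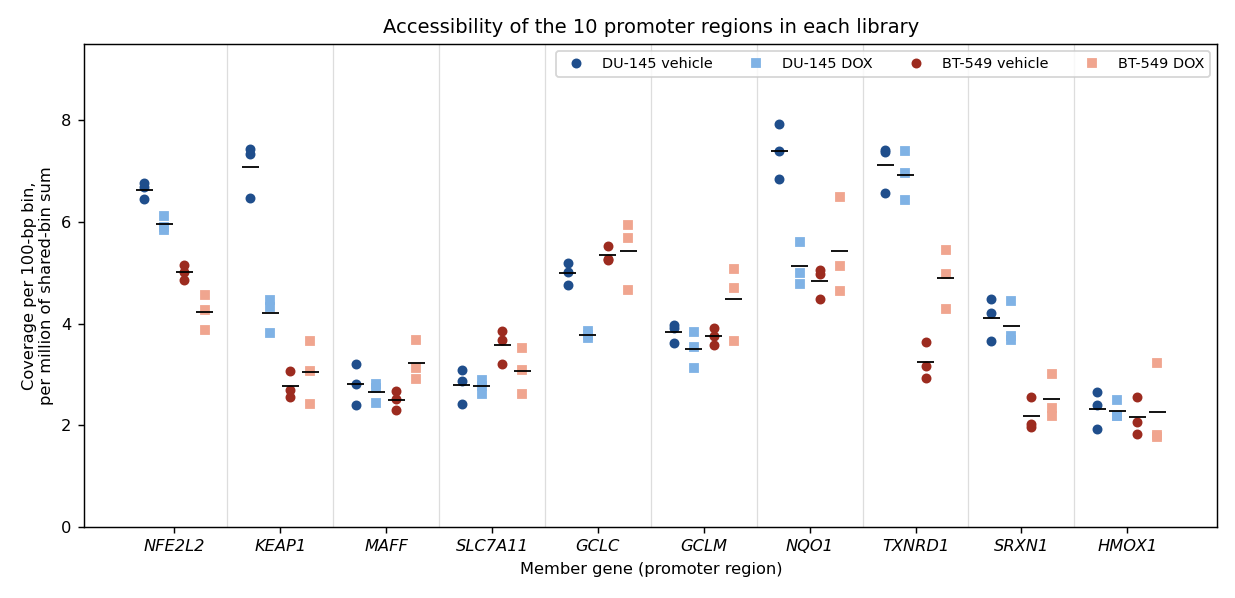
Promoter coverage per 100-bp bin, scaled to a shared-bin sum of 1000000, of each gene in each of the 12 libraries. Points are libraries and bars are means of 3. DU-145 vehicle stands above the other groups at KEAP1 and NQO1, and BT-549 vehicle is lowest at TXNRD1.

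Many member regions were in 1 table only. Of the 91 DU-145 regions, 53 had no overlap in the BT-549 table, beside 60.01% of all DU-145 regions, with 25 of the 32 TXNRD1 regions, 9 of the 12 GCLC regions and 4 of the 5 SLC7A11 regions among them. Of the 48 BT-549 regions, 9 had no overlap in the DU-145 table, beside 30.73% of all. The authors kept a region only where peaks were called in at least 3 replicates, so a missing region was below that threshold, which does not show that it was closed.

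The DOX effect was compared between the lines with an interaction term over all 12 libraries. Of the 40 shared member regions, 9 had a higher effect in BT-549 and 9 a lower one, against 11.3% higher and 27.3% lower among all regions, whose median was -0.24. With TMM factors the counts were 12 and 8, against 19.2% higher and 21.1% lower among all regions. The promoters of KEAP1, NQO1, TXNRD1 (internal start), GCLC (the start at 0.1 kb) and MAFF, 5 of 10, had a higher effect in BT-549. The count of lower ones was 0 (also 0 at an unadjusted p under 0.05 and with DESeq2). Of all regions near a start site, 18.78% were higher and 12.78% lower. At the GCLC start 3.0 kb upstream the difference was 0.36 ± 0.16 and did not pass (edgeR adjusted p = 0.0719, and 0.00397 with TMM factors). The KEAP1 difference was 0.89 ± 0.18 on the log2 scale, that of NQO1 0.69 ± 0.15 and that of TXNRD1 0.63 ± 0.14. The near HMOX1 element had a lower effect in BT-549 (-1.31 ± 0.38, edgeR adjusted p = 0.00562, and 0.155 with loess offsets), and the far one gave -0.33 ± 0.31 (edgeR adjusted p = 0.417). Of the 37 other pathway promoters, 10 (27.03%) were higher and 4 (10.81%) lower. The second share was near the 12.78% of all regions near a start site. CUL3 (0.95 ± 0.15), FTH1 (1.12 ± 0.18) and RBX1 (0.73 ± 0.16) were higher, and CBR3 (-1.02 ± 0.19) and NFE2L3, a relative of NRF2 (-0.96 ± 0.21), lower.

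**Figure D5:**
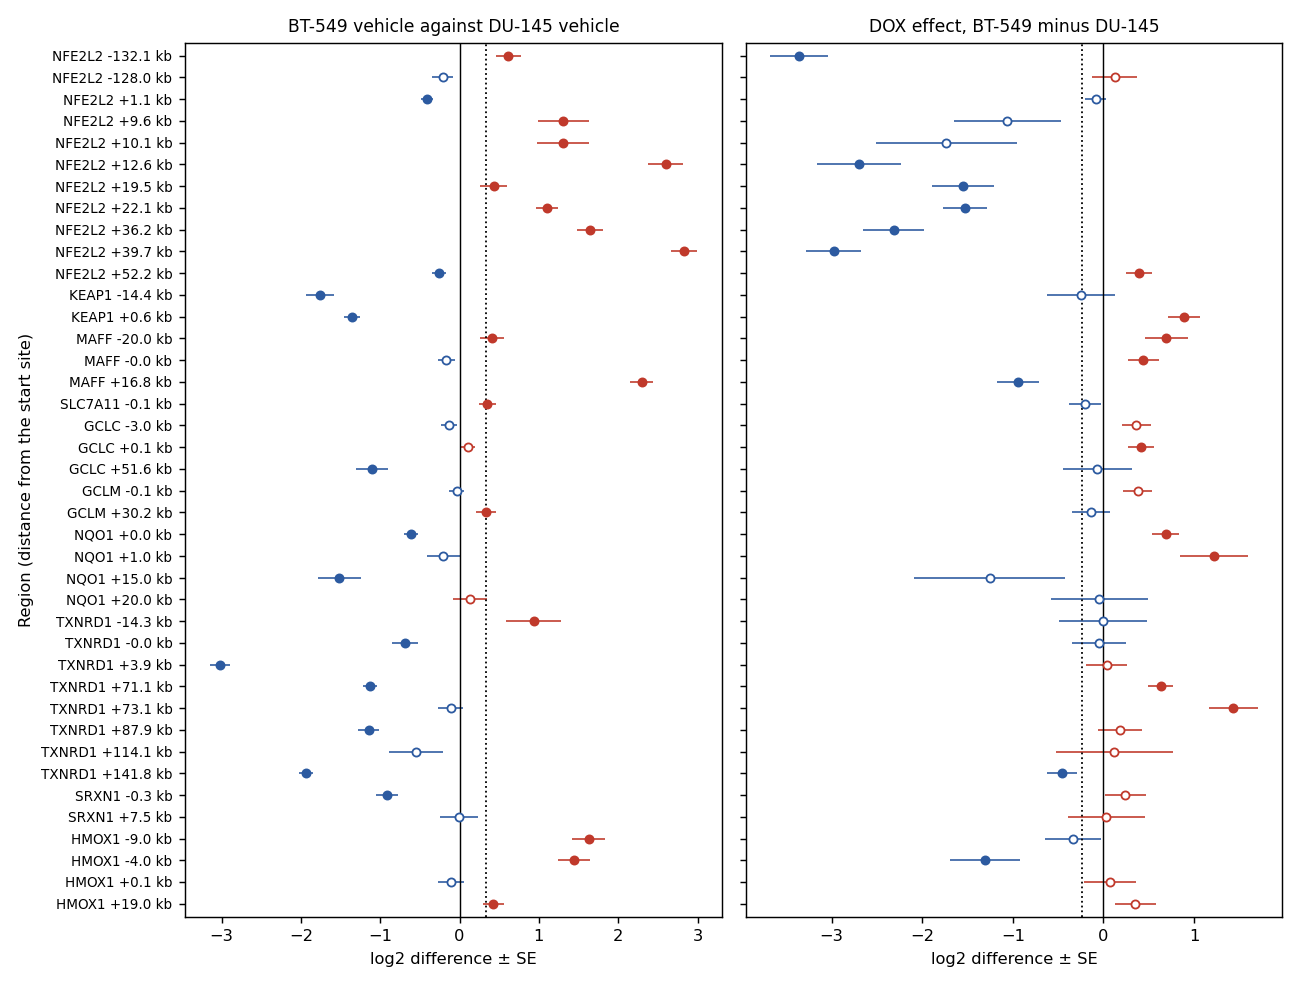
Log2 difference ± SE of the 40 shared member regions between the lines in vehicle (left) and of the DOX effect between the lines (right), with regions named by gene and distance from the start site in kb. Filled symbols passed an adjusted p of 0.05, red lies above 0 and blue below, and the dotted line is the median of all shared regions. The NFE2L2 introns lie to the right on the left side and to the left on the right side. Both sides use the same vehicle libraries with opposite sign, so they are not independent.

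The authors' peak calls of each library gave 102 to 111 peaks in the member windows in DU-145 vehicle and 94 to 97 with DOX. In BT-549 they gave 63 to 93 in vehicle and 25 to 29 with DOX. Over the whole genome the DU-145 libraries had 63271 to 83605 peaks in vehicle and 87702 to 95487 with DOX. The BT-549 libraries had 65204 to 93929 in vehicle and 30450 to 39837 with DOX. The BT-549 DOX libraries were the shallowest of the series, and the part of depth in these counts was not tested.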

How the data were processed

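ATAC-seq libraries of both lines, 3 with vehicle and 3 with DOX each, were grouped by the labels (which call the vehicle cells untreated). The authors aligned reads to GRCh38 with BWA, removed duplicates with Picard and called peaks per library with MACS2 2.2.7.1 at a q-value cutoff of 0.05 (the labels also list MACS3). Regions found in at least 3 replicates were split into 100-bp bins. The deposited bin tables hold estimated counts, the mean fragment coverage of each bin, not scaled between libraries. The deposited peak lists give a fold enrichment (ratio) and -log10 p and q values, and only peak positions were used here.

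Bin values were summed over runs of adjacent bins and rounded, and regions with a total under 10 were left out. A fragment covers several bins, so these sums count it more than once and are not numbers of fragments, which bears on the tests, the filter and the simulated call rates. Comparisons used the quasi-likelihood test of edgeR 4.0.16 (R 4.3.3) with robust fitting and library-sum scaling, fitted on each whole table, with Benjamini-Hochberg adjustment over all regions. The comparison of the lines and the interaction term used bins in both tables. Windows of protein-coding genes, with 20 kb flanks from GENCODE v44, were tested likewise. Errors of log2 fold changes are standard errors with n = 3 per group. They were derived from the fold change and the quasi-likelihood F statistic, whose dispersion is moderated over all regions. The methods of the study describe the 3 libraries per group as independent biological replicates.

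Alternatives were TMM factors, DESeq2 1.42.0, loess offsets, removal of the GC trend, the highest bin of each region, no filter, a replicate block, leaving out each library, and the cutoffs of the study. On simulated data with the DU-145 means, 100% of regions changed by 2 on the log2 scale were called and 64% and 82% of those changed by 1 and -1, over 79177 regions. With the BT-549 means these were 100%, 78% and 56% over 46298. The changed regions were drawn only from those with high totals, and all regions had the same dispersion. These rates therefore do not describe narrow regions with low values. No libraries of a group were identical (at most 1.652% of bins held equal values).

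The genes and the lists were chosen with earlier results of these data known. Promoter regions of the 10 genes were named, with up to 10 called member regions per comparison and up to 5 pathway promoters by smallest adjusted p, of which 1 is not reported here. Other regions were named after their values were seen. Sequences were read from hg38.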

Additional observations from a re-analysis of the deposited data

Results flagged for a closer look

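The DOX effect differed between BT-549 and DU-145 at 18 shared regions where the interaction passed (edgeR adjusted p under 0.05). First come 12 of them, the promoters and the regions with the smallest adjusted p. Values are the DOX effect in BT-549 minus that in DU-145, as log2 differences. Around NFE2L2 the difference was -3.36 at 132.1 kb upstream, -2.98 at 39.7 kb, -2.32 at 36.2 kb, -1.53 at 22.1 kb, -2.7 at 12.6 kb and -1.55 at 19.5 kb downstream. It was 1.43 at TXNRD1 73.1 kb and 0.63 at TXNRD1 71.1 kb downstream. At the promoters it was 0.89 for KEAP1, 0.69 for NQO1, 0.42 for GCLC (the start at 0.1 kb) and 0.44 for MAFF. The other 6 were HMOX1 4.0 kb upstream (-1.31), MAFF 16.8 kb downstream (-0.94) and 20 kb upstream (0.69), NQO1 1.0 kb downstream (1.22), NFE2L2 52.2 kb downstream (0.40) and TXNRD1 141.8 kb downstream (-0.46).

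With the GC trend removed, TXNRD1 at 141.8 kb (edgeR adjusted p = 0.148), the NFE2L2 regions at 22.1 and 19.5 kb and the MAFF promoter no longer passed (-0.41, -0.68 and 0.39 for the last 3, edgeR adjusted p = 0.198, 0.124 and 0.08). The highest bin alone lost the NFE2L2 regions at 22.1, 19.5, 52.2 and 132.1 kb, the MAFF promoter and the MAFF regions at 16.8 and 20 kb, and TXNRD1 at 141.8 kb. The last was also lost with TMM factors and with DESeq2. Loess offsets lost the GCLC and MAFF promoters, HMOX1 at 4.0 kb and NFE2L2 at 52.2 kb, and the GCLC call was lost without BT-549 DOX replicate 2. BT-549 DOX was the shallowest group, and the part of depth in these differences was not tested.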

How the results depend on the processing

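Over all results and alternatives run, 1206 values kept their direction and their side of the threshold, 38 passed it anew, 44 lost it, 6 turned and 1 moved outside the counts of calls.

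In DU-145, the 12 higher member regions became 7 with DESeq2, 5 with loess offsets, 3 with the GC trend removed and 2 at the cutoffs of the study, and the 34 lower ones became 62 with the GC trend removed and 4 at those cutoffs. Of all DU-145 regions, 37.1% were higher in the main fit, 26% with DESeq2, 24.8% with loess offsets and 23.1% with the GC trend removed. Lower were 17.4% in the main fit and 29.7% with the GC trend removed. In BT-549, the 4 higher regions ranged from 1 to 4 when each library was left out (1 without vehicle replicate 3, 2 without vehicle replicate 2) and were 0 at the cutoffs. Between the lines, the 16 higher regions became 9 with TMM factors, 9 with DESeq2 and 8 with the GC trend removed, and the 13 lower ones 21 and 20 with TMM factors and DESeq2. Of all shared regions, 48.1% were higher in the main fit, 37.1% with TMM factors, 32.9% with DESeq2 and 34.5% with the GC trend removed. Lower were 27% in the main fit, 35.6% with TMM factors and 35.2% with DESeq2. The 9 lower differences in DOX effect became 4 in the highest bins, where 17.8% of all shared regions were lower, against 27.3% in the main fit. The count of member windows higher in BT-549 ranged from 0 to 1 when each library was left out.

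Under loess offsets the DU-145 change turned to 0.012 at TXNRD1 +71.0 kb and 0.030 at NFE2L2 +1.0 kb. The line difference at the SLC7A11 promoter turned to -0.54 with the GC trend removed and -0.23 in the highest bin, and its difference in DOX effect to 0.87 with the GC trend removed. The line difference at the GCLC promoter (the start at 0.1 kb) turned to -0.20 with DESeq2. The cause was not tested.

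Same-numbered vehicle and DOX libraries did not deviate together (r from -0.035 to 0.0411 in DU-145 and 0.00478 to 0.0692 in BT-549), so the numbers were not taken as pairs. A replicate block gave 11 higher and 34 lower member regions in DU-145, 4 and 14 in BT-549, and 1 higher window in BT-549 in place of 0.

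Depth limits the narrow BT-549 regions, where DOX libraries often held few fragments per bin.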
